A study of Homo sapiens
Mus musculus with 3 samples.

Results

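Il7r, Rgs13, Hpgds, Apoh and Nefh are 5 mouse genes that were chosen by their read counts in these wells, for a wide difference between the 2 mouse lines of a lymphocyte mixture or for a dependence of that difference on the library protocol. They make up 5 of the 27998 mouse genes, and of the 60736 human and mouse genes, in the read tables. Each was found by its Ensembl identifier, which is ENSMUSG00000003882 for Il7r, ENSMUSG00000051079 for Rgs13, ENSMUSG00000029919 for Hpgds, ENSMUSG00000000049 for Apoh and ENSMUSG00000020396 for Nefh. Because the values chose the genes, the difference between mouse lines, the difference between protocols and the combination of both are given as descriptions. Tests over all genes are quoted for the share of genes they called, and a call of one of the 5 genes in them is a count fixed in part by the choice, not evidence.

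Single cells had been dispensed into the nanowells of an ICELL8 chip, where each well adds its own barcode to the 3′ ends of polyadenylated transcripts. The 3 libraries were all made from equal mixtures of 4 established lines, with no treatment or engineered allele given in the labels, namely Jurkat and TALL104 (T-cell leukemias, human), EL4 (T-cell lymphoma, mouse) and IVA12 (B-cell hybridoma, mouse). The group 3'DE, from the official 3′ differential expression kit, had 2 libraries, called DE-1 and DE-2 here after replicate numbers given in accession order. The group 3'DE-UMI had 1, called the UMI library, in which the barcoding primers were removed and digested between reverse transcription and amplification, a step that makes it possible to count molecules by their unique molecular identifiers (UMIs). The study's sample sheet places library DE-2 and the UMI library on the same cell mixture and library DE-1 on another, so a difference between the 3'DE libraries holds the mixture as well as the chip.

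The genes belong to unrelated systems. Il7r encodes the alpha chain of the interleukin-7 receptor, which pairs with the common gamma chain and carries survival signals to T-cell progenitors and resting T cells through Jak kinases and Stat5. Rgs13 is a GTPase-activating protein that shortens signaling from G-protein-coupled receptors, and it is best known from germinal-center B cells and mast cells. Hpgds, the hematopoietic prostaglandin D synthase, is the glutathione-dependent enzyme that makes prostaglandin D in mast cells and some helper T cells. Apoh is a phospholipid-binding plasma protein made mainly in the liver, and Nefh is the heavy subunit of the neurofilaments that fill large axons, so neither is usually thought of as a lymphocyte gene.

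Wells of a single species were split into 2 mouse clusters with these 5 genes held out, so their reads did not place any well. Mouse cluster 1, numbered first because it is the larger, held 474 wells in library DE-1, 498 in library DE-2 and 470 in the UMI library, and mouse cluster 2 held 448, 275 and 230. The label ascribes the genes to EL4, but the tables used here pair no identifier with a gene symbol, so the T-cell and B-cell markers could not be looked up and neither cluster was given the name of a line. A median well of mouse cluster 1 carried 28428.5, 36855 and 29910 mouse reads and 3033, 2921 and 1277.5 genes in the 3 libraries. The tables held 1704, 1518 and 1560 barcodes, against 1684, 1498 and 1465 processed wells in the labels. Libraries shared between 469 and 539 barcodes in pairs, and 94 to 97 of the shared barcodes were in mouse cluster 1 in both libraries of a pair.

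Reads of all 5 genes lay almost entirely in mouse cluster 1. Levels are in CPM, the reads of a gene for every 1000000 mouse reads, both summed over the wells of a cluster in 1 library. The summed level of the 5 genes in mouse cluster 1 was 498 CPM in library DE-1, 542 CPM in library DE-2 and 461 CPM in the UMI library, against 4.70, 8.10 and 0.393 CPM in mouse cluster 2. In the fit over all genes, edgeR's quasi-likelihood test with library as a block, 39.0% of the 12085 mouse genes tested differed between the clusters at an adjusted p under 0.05 and 19.8% were higher in mouse cluster 1. All 5 genes were among those higher, as their choice from this contrast fixes.

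**Figure D1:**
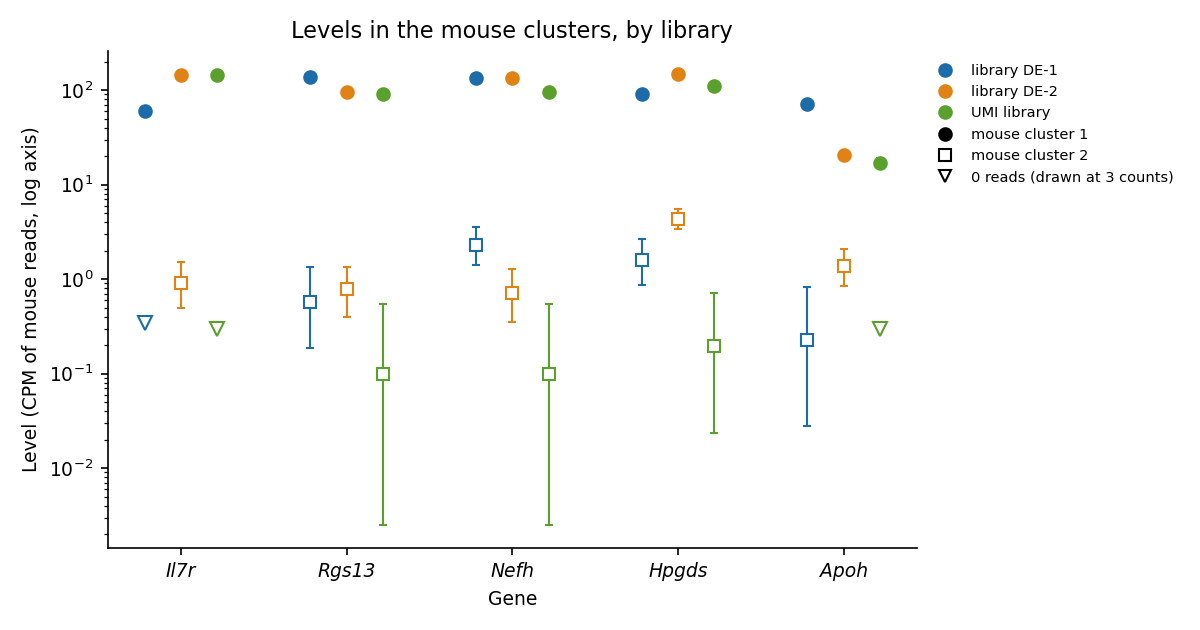
Level of each gene (CPM of mouse reads, log axis) in mouse cluster 1 (filled circles) and mouse cluster 2 (open squares) of each library. Bars are 95% Poisson intervals for counting error and are mostly hidden by the filled circles, and open triangles stand for 0 reads, drawn at the level of 3 counts. Each gene sits between 17.0 and 147 CPM in mouse cluster 1 and at or below 4.34 CPM in mouse cluster 2.

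The receptor gene Il7r stood at 60.6 CPM in mouse cluster 1 of library DE-1, 144 CPM in library DE-2 and 145 CPM in the UMI library. In mouse cluster 2 it had 0 reads in library DE-1, 14 reads in library DE-2 and 0 reads in the UMI library. The ratio of the clusters was at least 176-fold in library DE-1 and at least 492-fold in the UMI library, both taken against a limit of 3 reads per library, and 158-fold (94.2 to 290, 95% counting interval) in library DE-2. Mouse cluster 2 thus held no read of Il7r in 2 libraries, and in mouse cluster 1 library DE-1 stood below the other libraries, which did not differ from each other beyond their counting intervals (140 to 147 and 139 to 151 CPM).

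The signaling regulator Rgs13 ran the other way among the libraries. Its level in mouse cluster 1 was 139 CPM in library DE-1, 96.8 CPM in library DE-2 and 91.8 CPM in the UMI library. Mouse cluster 2 held 5, 12 and 1 of its reads, and the cluster ratio was 243-fold (104 to 749) and 124-fold (71.2 to 241) in the 3'DE libraries. From the single read in the UMI library the ratio was 935-fold, with an interval from 168 to 36956 that treats reads as independent. No UMI of Rgs13 was counted in mouse cluster 2 of that library, so the size of the ratio there is not known.

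Hpgds, the prostaglandin enzyme, was found at 90.8 CPM in mouse cluster 1 of library DE-1, 147 CPM in library DE-2 and 111 CPM in the UMI library. Mouse cluster 2 held 14, 67 and 2 of its reads, the most of the 5 genes in library DE-2 and the UMI library but fewer than the 20 of Nefh in library DE-1. The cluster ratio was 56.6-fold (33.6 to 104) and 33.8-fold (26.6 to 43.7) in the 3'DE libraries and 565-fold (156 to 4668) in the UMI library. Counted in reads, the interval of the UMI library lies above both 3'DE intervals, but 1 well of mouse cluster 2 in library DE-2 held 44 of the 67 reads. In the UMI library, no UMI of Hpgds was counted in mouse cluster 2. There the limit of 3 counts was 3.22 CPM of UMIs, against 84.5 CPM of UMIs in mouse cluster 1. Whether the ratio differed between the libraries cannot be told from so few molecules.

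The plasma-protein gene Apoh varied most among the libraries, at 71.8 CPM in mouse cluster 1 of library DE-1, 20.7 CPM in library DE-2 and 17.0 CPM in the UMI library. Its reads in mouse cluster 2 numbered 2, 21 and 0. The cluster ratio was 313-fold (86.5 to 2592) in library DE-1, 15.2-fold (9.88 to 24.7) in library DE-2 and at least 57.6-fold in the UMI library. In library DE-2 the gene was therefore both low in mouse cluster 1 and at its highest in mouse cluster 2, where 14 of its 21 reads came from 1 well.

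Nefh, the neurofilament gene, was the steadiest across the 3'DE libraries, at 135 CPM in library DE-1 and 134 CPM in library DE-2, and stood at 96.2 CPM in the UMI library. Mouse cluster 2 held 20, 11 and 1 of its reads. The cluster ratio was 59.1-fold (38.1 to 97.0), 188-fold (105.2 to 378) and, from 1 read, 980-fold (176 to 38711). As for the other genes, these intervals cover counting error only, since reads copied from 1 molecule are not independent.

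The spread between the 3'DE libraries was as large as or larger than the step to the UMI library for 4 of the 5 genes, counted in reads. The UMI library minus the mean of the 3'DE libraries was, in log2 units, 0.64 for Il7r (SD of the 3'DE libraries 0.88, n = 2), −0.34 for Rgs13 (SD 0.37), −0.06 for Hpgds (SD 0.49) and −1.18 for Apoh (SD 1.27). For Nefh it was −0.49 with an SD of 0.01, so in reads only Nefh moved by more than the 3'DE libraries differed from each other. With UMI counts in place of reads, Rgs13 did so too, at −0.93, and Nefh stood at −0.94. In edgeR's test of 3'DE-UMI against 3'DE in mouse cluster 1, 12.3% of 11791 genes passed at an adjusted p under 0.05, and 0 of the 5 genes did. DESeq2 also called 0 of the 5. With no filter on low counts, or with each well thinned to 5000 mouse reads, edgeR called Apoh, with fitted log2 differences of −1.60 and −1.51. Nothing about the protocol can be read from this contrast, which chose some of the genes and rests on 1 residual degree of freedom.

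Il7r and Apoh separated the 3'DE libraries in opposite directions. Il7r was 2.37-fold higher and Apoh 3.47-fold lower in library DE-2 than in library DE-1, whereas between library DE-2 and the UMI library, made from the same mixture, Il7r differed by 0.01 and Apoh by −0.29 on the log2 scale. Among the 7475 mouse genes with at least 10 CPM in mouse cluster 1 of a library, 8.45% differed by at least 2-fold between the 3'DE libraries on the scale of log2(CPM + 1). A gap of the size of Il7r or more was found for 4.37% of these genes, and one of the size of Apoh or more for 1.03%. For Hpgds the share was 19.1%, for Rgs13 30.4% and for Nefh 98.3%. The median gene moved by 0.33 in size between the 3'DE libraries and by 0.65 between library DE-2 and the UMI library, and Il7r and Apoh showed the reverse of that order. Rgs13, with 0.52 and 0.08, and Hpgds, with 0.69 and 0.40, did so too, and Nefh, with 0.01 and 0.48, did not. With every well thinned to 5000 mouse reads the gap was 1.42 for Il7r and −1.60 for Apoh in log2 CPM, against 1.24 and −1.80 with all reads. Thinning leaves the expected share of a gene in a well unchanged. These values therefore cannot show whether depth played a part, which was not tested. The mixture and the chip cannot be told apart, because each 3'DE library has its own.

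**Figure D2:**
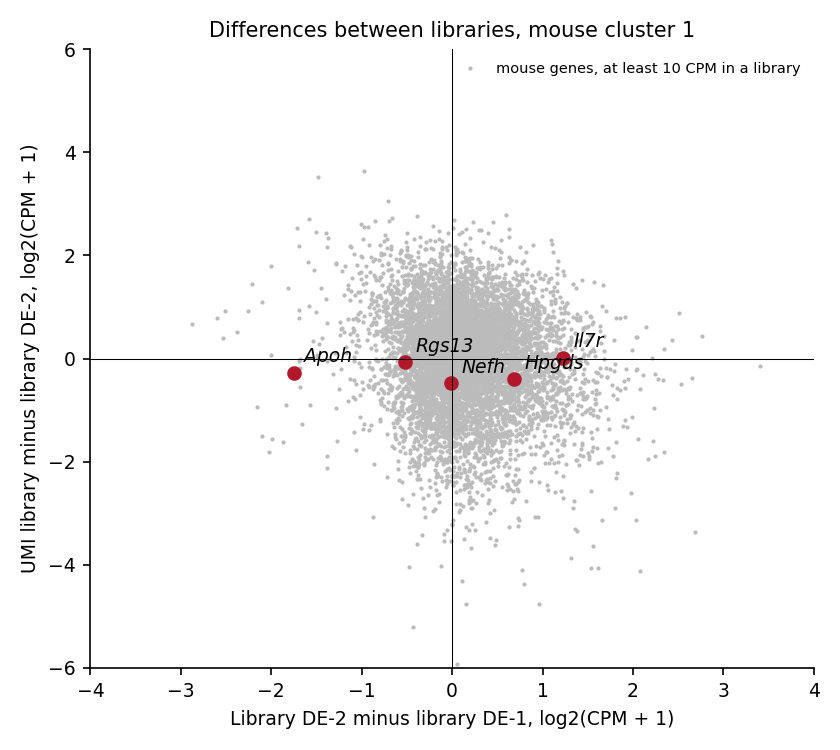
Difference of library DE-2 and library DE-1 (x axis) against the difference of the UMI library and library DE-2 (y axis), both on log2(CPM + 1), in mouse cluster 1. Gray points are mouse genes with at least 10 CPM in a library, of which 4 lie outside the axes, and red points are the 5 genes, with Apoh far left, Il7r far right and all 5 within 0.48 of 0 on the y axis.

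How the difference between the clusters changed with the protocol depended on the counts and tool used. In edgeR's test of that change over all genes, 2.16% of 13242 genes passed, that is 286, against 48 by DESeq2, 175 without TMM factors, 114 with thinned wells and 7 with UMI counts. Hpgds was the 1 gene of the 5 among the 286, and since this contrast is one that chose the genes, nothing is read from that call. With DESeq2, UMI counts and thinned wells, 0 of the 5 were called. In mouse cluster 1 the UMI-library value of Hpgds, 111 CPM, lay between those of the 3'DE libraries, and in mouse cluster 2 its level was 1.60 and 4.34 CPM in the 3'DE libraries and, from 2 reads, 0.196 CPM in the UMI library. For all 5 genes the fitted change rests on 0 to 2 reads in mouse cluster 2 of the UMI library, and no fitted size is given.

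What few reads lay outside mouse cluster 1 sat in a small number of wells. In mouse cluster 2, 11 of 448 wells of library DE-1 held a read of any of the 5 genes (2.46%, exact 95% interval 1.23 to 4.35), as did 42 of 275 wells of library DE-2 (15.3%, 11.2 to 20.1) and 4 of 230 wells of the UMI library (1.74%, 0.476 to 4.39). The 3 richest wells held 61.0% of these reads in library DE-1, 56.0% in library DE-2 and 75% in the UMI library. Human cells do not carry these mouse genes, and their wells gave a share measured the same way. A read of one of the 5 mouse genes was found in 2.44%, 14.9% and 1.26% of the human wells of the 3 libraries, whose median depth was 21426, 34368 and 16457 reads of both species, against 20319, 21748 and 33648.5 in mouse cluster 2. The shares in mouse cluster 2 were thus close to those in human wells of the same library. The human wells that held such a read had a median of 1952, 1802 and 443 mouse reads, against 35, 955.5 and 204.5 in those that did not. Whether the reads in mouse cluster 2 were stray or came from the well's own cell was not tested.

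The genes were not equally common in the human wells. In library DE-2, the human wells held 95 reads of Il7r, 81 of Rgs13, 51 of Hpgds, 36 of Nefh and 15 of Apoh, and 54 of the Il7r reads came from 1 well. Relative to the mouse reads in human wells, the summed level of the 5 genes was 151, 225 and 148 CPM, which is lower than in mouse cluster 1 and far higher than in mouse cluster 2. These levels have unlike denominators. Human wells held 331235, 1234767 and 208770 mouse reads in the 3 libraries, against 8729959, 15429575 and 10183838 in mouse cluster 2. Library DE-2 had the most reads of the 5 genes outside mouse cluster 1. It was also the deepest, with 109702878 reads in all, against 35581264 in library DE-1 and 44883618 in the UMI library. Its wells of mouse cluster 1 held a median of 1.73% of reads from the other species, against 0.469% and 0.405% in library DE-1 and the UMI library. The part of reads from other wells in the cluster ratios was not tested.

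Even in mouse cluster 1 most wells held no read of a given gene at equal depth. After each well was thinned to 5000 mouse reads, which left out 15, 20 and 14 shallower wells, Il7r was found in 18.5% (exact 95% interval 15.1 to 22.4) of the wells of library DE-1, 30.8% (26.6 to 35.1) of library DE-2 and 19.96% (16.4 to 23.9) of the UMI library. Its level was nearly the same in the last 2 libraries, so the same CPM was spread over fewer wells in the UMI library. Hpgds gave 25.3%, 28.7% and 14.0%, and Nefh 35.3%, 28.5% and 13.4%. Rgs13 went from 27.7% to 14.6% and 9.21%, and Apoh from 17.2% to 4.81% and 3.07%. For each of the 5 genes the share in the UMI library was below that of library DE-2, the library from the same mixture, and the intervals of the pair overlapped for Apoh and, by a narrow margin, for Rgs13. With all reads, the shares were 34.4%, 50.0% and 27.0% for Il7r, 45.6%, 24.3% and 11.9% for Rgs13, 47.5%, 48.2% and 23.6% for Hpgds, 30.8%, 15.7% and 5.32% for Apoh and 63.7%, 47.6% and 18.9% for Nefh. None of the 5 genes was found in more wells of the UMI library than of library DE-2 on either scale. A median well of mouse cluster 1 also held fewer genes of any kind in the UMI library, 1277.5 against 2921 in library DE-2. The share of all mouse genes with such a drop was not computed, so the drop is not read as a trait of these 5 genes.

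**Figure D3:**
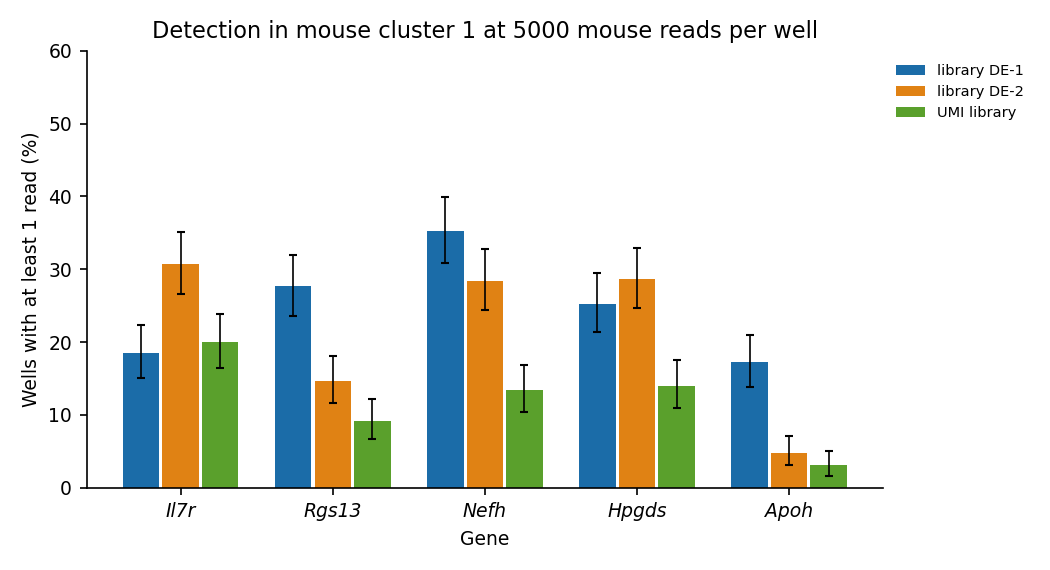
Share of wells of mouse cluster 1 with at least 1 read of a gene after thinning to 5000 mouse reads per well, by library. Bars start at 0, and error lines are exact 95% binomial intervals over 459, 478 and 456 wells. The UMI library has the lowest share for each gene but Il7r, for which library DE-1 is lowest at 18.5%.

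The reads of a gene were uneven over the thinned wells of mouse cluster 1, those with 0 reads included. The variance over the mean of the thinned reads was 1.62 for Il7r, 2.08 for Hpgds, 2.17 for Nefh, 2.62 for Apoh and 5.12 for Rgs13 in library DE-1, where the median of 5408 mouse genes with a mean of 0.05 to 1 read per well was 1.63 (quartiles 1.44 and 1.84). The reads of Rgs13 were thus unevenly spread in that library, with up to 17 of the 5000 reads of a well, although 27.7% of the wells held at least 1. In library DE-2 the value for Rgs13 was 4.77 against a median of 2.60, and in the UMI library it was 8.87 against a median of 5.51, so in all 3 libraries it lay above the upper quartile (1.84, 3.21 and 7.24) and was the highest of the 5 genes. The others also passed the upper quartile in places. Hpgds, Nefh and Apoh did so in library DE-1, Il7r (3.77), Nefh (3.54) and Apoh (3.24) in library DE-2, and Il7r (7.68) and Hpgds (7.60) in the UMI library, where Apoh lay below the median at 4.31. The background genes were not matched on mean reads per well. That mean was 0.292 for Il7r and 0.734 for Rgs13 in library DE-1, and 0.0855 for Apoh in the UMI library. Variance over the mean can rise with the mean, so a place against the quartiles is only a description. In the deposited reads, the richest well held 109, 347 and 154 reads of Rgs13 in the 3 libraries.

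**Figure D4:**
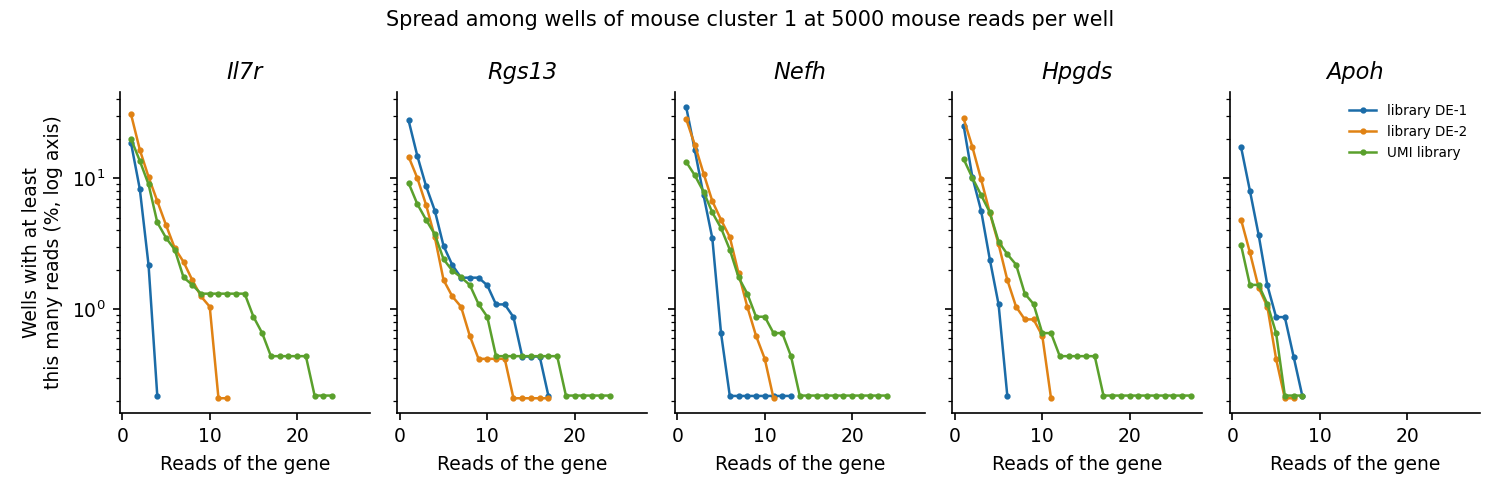
Share of wells of mouse cluster 1 (log axis) that held at least the given number of reads of each gene (x axis) after thinning to 5000 mouse reads per well, by library. In library DE-1 the curve of Rgs13 reaches 17 reads, whereas that of Il7r ends at 4, and the curves of the UMI library start lowest for all but Il7r.

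Molecules were counted only in the UMI library. Mouse cluster 1 held 186 UMIs of Il7r, 95 of Rgs13, 132 of Hpgds, 31 of Apoh and 110 of Nefh, or 119, 60.8, 84.5, 19.8 and 70.4 CPM when UMIs are counted in place of reads. Most wells that held a gene held 1 molecule of it, as in 77 of 121 wells for Il7r, 38 of 55 for Rgs13, 78 of 100 for Hpgds, 21 of 24 for Apoh and 69 of 87 for Nefh. A single well reached 12 UMIs of Rgs13, against at most 6 for Il7r and Hpgds, 5 for Apoh and 3 for Nefh. That maximum rests on 1 well, and the spread of UMIs was not compared with that of other mouse genes. Reads per UMI were 14.1 for Il7r, 17.5 for Rgs13, 15.2 for Hpgds, 9.90 for Apoh and 15.8 for Nefh, where the median over 6174 mouse genes with at least 20 UMIs was 13.4 (quartiles 10.9 and 15.6). Rgs13 and Nefh lay above the upper quartile and Apoh below the lower one. The reads and the UMIs were counted by different software, so the ratio is not only a number of copies per molecule. In mouse cluster 1, 11 wells held reads but no UMI of Hpgds, and 7 did so for Il7r. In mouse cluster 2 there was 1 UMI in all, of Nefh.

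The number of genes found together in a well differed between the libraries. At 5000 mouse reads per well, no gene of the set was seen in 24.6% of the wells of mouse cluster 1 in library DE-1, 28.9% in library DE-2 and 53.3% in the UMI library. A single gene was seen in 39.4%, 41.8% and 35.5%, 2 genes in 24.8%, 23.4% and 9.43%, 3 genes in 9.59%, 4.81% and 1.75%, and 4 genes in 1.53%, 1.05% and 0%. No well held all 5 at this depth, whereas with all reads 9, 6 and 2 wells did. In mouse cluster 2, no gene was seen in 98.6%, 95.7% and 100% of the thinned wells, and no well held more than 1. At least 1 of the 5 genes was thus found in 75.4% (71.2 to 79.3), 71.1% (66.8 to 75.2) and 46.7% (42.1 to 51.4) of the wells of mouse cluster 1, against 1.41%, 4.27% and 0 of 224 wells in mouse cluster 2, where a count of 0 allows up to 1.63% by the exact interval.

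**Figure D5:**
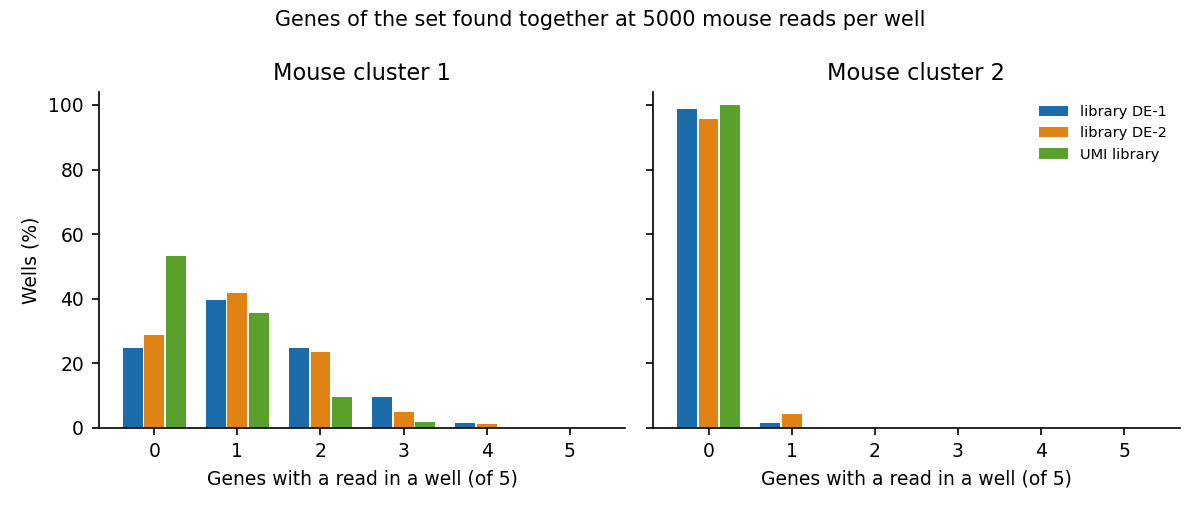
Share of wells by the number of the 5 genes with a read, after thinning to 5000 mouse reads per well, in mouse cluster 1 (left) and mouse cluster 2 (right) of each library. In mouse cluster 1 of the 3'DE libraries a single gene is the most frequent outcome, and in mouse cluster 2 at least 95.7% of wells hold none.

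Over wells, pairs of the 5 genes gave weak correlations, from which nothing is read because most thinned counts are 0. Pearson correlations of the thinned counts on a log2 scale ran from −0.09 to 0.24 over the 10 pairs in library DE-1, from −0.06 to 0.08 in library DE-2 and from −0.09 to 0.06 in the UMI library. The highest belonged to Rgs13 and Apoh, which shared 31 wells in library DE-1, and that pair had 0.06 in each of the other libraries. Rgs13 and Hpgds gave 0.14, 0.08 and −0.05 in the 3 libraries, with 36, 24 and 5 shared wells. The levels of Apoh and Rgs13 by depth had no order common to the libraries. Over 4 equal groups of wells ordered from the shallowest to the deepest, the level of Apoh in library DE-1 was 37.9, 53.3, 84.3 and 84.0 CPM, while that of Rgs13 was 166, 153, 149 and 115 CPM. Library DE-2 gave 21.8, 21.5, 30.3 and 17.9 CPM for Apoh and 40.0, 109, 75.5 and 104 CPM for Rgs13. The UMI library gave 3.63, 33.5, 8.47 and 18.3 CPM for Apoh and 58.0, 21.2, 52.3 and 131 CPM for Rgs13.

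The pattern over the 6 sums, that is 2 mouse clusters in 3 libraries, was compared with that of 8820 mouse genes with at least 10 CPM in a sum, by Pearson's r of log2(CPM + 1). The sums of 1 library share its depth and chip, and the split of the clusters sets most of r, so these values only describe likeness. An r above 0.99 was found with 86 genes for Il7r, 67 for Rgs13, 27 for Hpgds, 34 for Nefh and 3 for Apoh. Between genes of the set, r ran from 0.918 for Il7r and Apoh to 0.992 for Rgs13 and Nefh. The gene nearest to Rgs13 was ENSMUSG00000019889 (r = 0.9998), at 89.0, 65.5 and 61.8 CPM in mouse cluster 1 of the 3 libraries and at most 0.583 CPM in mouse cluster 2. The gene nearest to Apoh was ENSMUSG00000056069 (r = 0.992), at 22.2, 10.1 and 6.91 CPM, which fell off from library DE-1 to the others as Apoh did. Over wells of mouse cluster 1, the highest mean r of any of 3939 genes with any of the 5 was 0.152, and such weak values in sparse counts were not read further.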

How the data were processed

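Raw read counts per gene and well were used for all 3 libraries, and UMI counts for the UMI library, as the authors deposited them. Per the study's methods, the authors made the read counts with mappa and the UMI counts with the Drop-seq tools on a joint human (hg19) and mouse (mm10) reference, and the submitters' processing notes list STAR 2.7.0b and STAR 2.4.2a. Reads had been downsampled, by the methods, and whether the deposited counts came after that step is not given in the sources used here. The reads are 3′ tags, so levels are not compared between genes.

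The genes, lists and tests were chosen with earlier results of these data known. Wells needed at least 1000 reads, 200 genes and under 10% of reads from the other species, which left mixed-species doublets out, and no caller was run for doublets of one species. The 2395 mouse wells were clustered with scanpy 1.11.5 (1000 variable genes chosen jointly over the libraries and scaled within each library, 20 components, 15 neighbours, Leiden resolution 0.1) without the 5 genes. Clustering on either of 2 gene sets moved 5 and 3 wells. Clustered genes are not independent of the clusters, so the contrast over all genes is only the background for the counts given. For the fits, reads were added up within each library and cluster, and the sums went into edgeR 4.0.16 (filterByExpr, TMM, glmQLFit, glmQLFTest, Benjamini-Hochberg over all genes), with DESeq2 1.42.0 as an alternative. The lone UMI library was taken to vary like the 3'DE libraries, and nothing in the labels says that the 3'DE libraries came from separate cultures, so p-values may measure technical spread. Intervals are 95% exact binomial for shares and exact Poisson or conditional binomial for counts and ratios, and 3 counts stand for a count of 0. Named genes were to be the 5 members, the genes of fixed pathway lists and the genes nearest in pattern. No symbol could be paired with an identifier here, so the pathway lists, cell markers, sequences and positions were not analysed. Of the genes nearest in pattern over the sums, only the nearest to each of the 5 members is given, by identifier.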

Additional observations from a re-analysis of the deposited data

Results flagged for a closer look

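Reads of the 5 genes were also found in wells that entered no comparison. Wells holding both species carried 156 such reads in library DE-1, 623 in library DE-2 and 145 in the UMI library, each more than the 3 that a count of 0 allows. In library DE-1, 101 of these reads were of Rgs13 in 1 well. Wells below the limits on reads and genes carried 61 of these reads in the UMI library and 0 in either 3'DE library. Of the 61, Rgs13 had 32, in 1 well that held no UMI of it. What these wells contained was not tested.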

How the results depend on the processing

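The 5 genes were called higher in mouse cluster 1 by each alternative fit, and the count over all genes stayed between 3815 and 5677 against 4709, except without library DE-1 (3094) or without library DE-2 (3077), in a range of 3077 to 5077 over the libraries left out. Without TMM factors the split of that count was 1883 higher and 2907 lower, against 2390 and 2319, and the median gene moved from −0.03 to −0.26 on the log2 scale. In the test of protocol, the same change gave 767 higher and 825 lower, against 542 and 914. The count of 1456 fell to 911 with UMI counts, and the 5 genes gained 1 call, Apoh, with no filter on low counts and with thinned wells. The change of the cluster difference with protocol was called for 286 genes, but for 48 by DESeq2, 175 without TMM factors, 7 with UMI counts and 114 with thinned wells, and Hpgds was called under neither DESeq2, UMI counts nor thinned wells (0 of the 5). The cause of these moves was not tested. The summed level in mouse cluster 1 was 355 CPM from UMIs instead of 461 CPM from reads, and in mouse cluster 2 of library DE-2 it was 11.9 CPM as a mean over wells and 11.97 CPM in thinned wells instead of 8.10. In human wells, the mean over wells gave 58.7 and 343 CPM in libraries DE-1 and DE-2, and a mixed-species limit of 5% gave 355, 121 and 50.0 CPM in the 3 libraries, against 151, 225 and 148. The share of mouse cluster 1 wells with any of the genes was 44.2%, 50.4% and 36.8% for at least 2 reads, 48.1%, 53.6% and 35.3% at 2000 reads per well and 92.4%, 85.3% and 57.9% with all reads, so the lowest place of the UMI library held while the order of the 3'DE libraries did not. Over 5 settings, the log2 difference of the 3'DE libraries stayed at 1.10 to 1.42 for Il7r and −1.83 to −1.52 for Apoh. Of 70 further values for single genes, 57 moved by less than the spread of the 3'DE libraries and 13 by more. The latter include values of Nefh, for which that spread was close to 0, and those of Rgs13 with UMI counts. Tests of protocol without either 3'DE library leave no residual degree of freedom and were not run, and the pathway lists and the removal of wells with both T-cell and B-cell markers could not be run without gene symbols. No paired analysis was possible because the groups share only 1 replicate number, given in accession order. Depth limits every absence stated here to the count of 0 and its 3 reads.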
